A study of Mus musculus with 21 samples.

Results

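The genes described here encode integrin chains and 2 other proteins of leukocyte adhesion, and they were chosen by name: Itgam, Itgax, Itgb2, Itga4, Itga6, Itgb1, Itgav, Itgb5, Icam1 and Selplg. All 10 were found in both tables of the study, among 18079 genes of the genotype table and 13297 genes of the injection table. Microglia, the brain's own macrophages, were isolated from mice of 12 to 18 weeks and their RNA was read as 3′ tags (QuantSeq 3′ FWD). The genotype table compares uninjected mice labelled female and ApoE KO (strain B6.129P2-Apoetm1Unc/J, n = 4) with uninjected mice labelled female and WT (strain C57BL/6, n = 7). In the injection table all animals are labelled male and ApoE KO, of that same strain, so both groups lack the mouse Apoe gene: 5 libraries followed recombinant APOE (rAPOE) in PBS and 5 followed PBS alone, both 16 h after injection into the left hemisphere. Both hemispheres were collected, and the labels do not say which a library came from. The knockout is a constitutive targeted allele, so the lack of ApoE is not limited to microglia. No label states that the libraries within a group are separate animals, and the p-values therefore speak of spread among libraries, which may include technical spread.

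An integrin is a pair of an alpha and a beta chain that spans the membrane and binds matrix proteins or proteins of other cells. Its grip is switched from inside the cell, where talin and kindlin bind the tail of the beta chain. On microglia, Itgam (CD11b) with Itgb2 (CD18) forms the complement receptor CR3, which binds Icam1 and takes up synapses and debris tagged with complement, and Itgam is the standard surface marker of these cells. Itgax (CD11c) shares the same beta chain and is known in brain for microglia of developing white matter and of disease lesions. Itgb1 pairs with Itga4 to bind Vcam1 and fibronectin, and with Itga6 to bind laminin. Itgav with Itgb5 binds vitronectin and Mfge8, a protein that coats dying cells. Selplg (PSGL-1) is the ligand of P-selectin and is used as a marker of resting microglia.

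Itgam and Itgax lie side by side on the plus strand of chromosome 7, at 128062640 to 128118491 and 128129547 to 128150657 (GRCm38, GENCODE M21), with 11055 bases between them. Itgb2 lies on chromosome 10 (77530252 to 77565708), Itgb1 on chromosome 8 (128685654 to 128733200), Itgb5 on chromosome 16 (33829665 to 33949338) and Icam1 on chromosome 9 (21015985 to 21028817). Itga6 (71745616 to 71858416), Itga4 (79255426 to 79333123) and Itgav (83724397 to 83806916) lie on chromosome 2. These are plus-strand genes, and Selplg is on the minus strand of chromosome 5 (113818536 to 113832644). All are annotated as protein coding, and a 3′ tag reports the end of the transcript, not the chain that is made.

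RefSeq promoter windows of GRCm38.p6, from 250 bases before to 50 bases after the start site, were at hand for 7 of the 10 genes. The windows of 4 genes are shown, because Itgam and Itgax are neighbours of which Itgax was lower in ApoE KO and Itgam was not called, Icam1 was higher there, and Itgb5 was lower after rAPOE. Capitals mark matches, on either strand, to the letters of 4 motifs. The first is GAGGAAG, for the purine box of PU.1, a factor of the myeloid lineage. The motif of NF-kB, a factor of inflammation, was searched as GGAAATTCC. That of AP-1, which answers growth and stress signals, was searched as TGAGTCA, and the box of general transcription that gives TATA promoters their name was searched as TATAAA. The motifs were chosen after the windows had been read.
Itgam, plus strand, chr7:128062390-128062689: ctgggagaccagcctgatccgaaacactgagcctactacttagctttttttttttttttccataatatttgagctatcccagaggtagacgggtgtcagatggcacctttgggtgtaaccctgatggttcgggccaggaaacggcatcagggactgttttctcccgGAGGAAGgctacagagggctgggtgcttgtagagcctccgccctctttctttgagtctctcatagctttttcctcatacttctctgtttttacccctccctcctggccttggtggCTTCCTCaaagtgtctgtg
Itgax, plus strand, chr7:128129300-128129599: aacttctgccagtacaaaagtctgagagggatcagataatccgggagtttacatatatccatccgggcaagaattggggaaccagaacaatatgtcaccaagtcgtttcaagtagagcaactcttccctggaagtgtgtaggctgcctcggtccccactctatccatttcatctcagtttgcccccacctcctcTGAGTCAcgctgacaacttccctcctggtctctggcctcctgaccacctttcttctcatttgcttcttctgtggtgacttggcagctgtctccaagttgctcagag
Icam1, plus strand, chr9:21015690-21015989: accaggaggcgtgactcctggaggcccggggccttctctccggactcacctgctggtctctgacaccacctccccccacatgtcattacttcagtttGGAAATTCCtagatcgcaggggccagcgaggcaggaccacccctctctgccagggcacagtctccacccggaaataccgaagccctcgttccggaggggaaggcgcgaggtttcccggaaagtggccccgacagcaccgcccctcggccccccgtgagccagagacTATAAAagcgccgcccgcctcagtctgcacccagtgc
Itgb5, plus strand, chr16:33829415-33829714: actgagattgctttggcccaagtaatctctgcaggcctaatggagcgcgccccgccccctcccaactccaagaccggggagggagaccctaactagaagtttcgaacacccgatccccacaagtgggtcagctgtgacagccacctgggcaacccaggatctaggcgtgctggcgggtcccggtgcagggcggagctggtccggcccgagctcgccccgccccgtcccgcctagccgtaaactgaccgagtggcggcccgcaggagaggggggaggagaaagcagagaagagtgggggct
The Itgam window holds the PU.1 letters at position -84 from the start site and, on the opposite strand, at 31. The Itgax window holds the AP-1 letters at -56. The Icam1 window holds the NF-kB letters at -153 and the TATA letters at 13, and the Itgb5 window holds none of the 4. Of the windows not shown, that of Itgav holds the PU.1 letters on the opposite strand at -8. Those of Itga4, also lower in ApoE KO, and Itgb1 hold none. Positions count from the RefSeq start site of the window. For Icam1 the GENCODE start (21015985) lies after both matches, so both are upstream of that start. No 2 matches overlap. Among all 32851 mouse windows of that length, the PU.1 letters occur in 13.6%, the NF-kB letters in 0.317%, the AP-1 letters in 5.20% and the TATA letters in 13.6%. A match is a description of the letters, not a site shown to be bound.

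Values are normalised counts, that is the reads of a gene divided by a factor of its library. The tables were normalised apart, so levels are not compared between them. Libraries held 4247865 to 4969287 reads for ApoE KO, 2016972 to 3054976 for WT, 857059 to 1119059 for rAPOE and 704225 to 1347501 for PBS. The targeted gene, Apoe, lay at 0 to 23.1 in ApoE KO libraries, against 1011 to 17163 in WT libraries, with the lowest WT value in library 8. The ApoE KO libraries, although deeper, had reads of 8117 to 10479 genes each, against 13592 to 15248 in WT libraries, and the part of that in the values at 0 below was not tested. In the injection table the libraries numbered 4 and 5 had reads of 11342 and 11026 genes after rAPOE and of 11232 and 10025 after PBS, and the others of 7691 to 8727 and 7601 to 8837. WT library 8 stood apart from the other WT libraries. It held no Y-linked reads and Xist at 3291, as the ApoE KO libraries did (0 Y-linked reads, Xist 1980 to 3292), whereas the other WT libraries, also labelled female, had Xist at only 1127 to 1279 and between 11 and 36 reads of Y-linked genes. In the injection table, labelled male throughout, library 5 of rAPOE and library 5 of PBS held Xist (718 and 979) and no Y-linked reads. Of 20 microglial genes used for an alternative scaling, such as Cx3cr1 and Csf1r, all were detected in each group, with summed values of 138772 to 159632 in ApoE KO and 114610 to 134304 in WT libraries.

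In the genotype comparison 3 of the 10 genes were higher in ApoE KO libraries (Selplg, Icam1 and Itga6) and 2 were lower (Itgax and Itga4), at a limma adjusted p under 0.05 over all genes tested. The background is broad: 25% of the 10401 genes tested passed, 5.14% higher and 19.8% lower. Genes were tested where the mean of ApoE KO and WT libraries together reached 10. Of the 2061 genes lower, 1210 (58.7%) had an ApoE KO mean under 10 and so were tested only through their WT level, Itga4 among them. Of the 535 genes higher, 10 had a WT mean under 10. The median log2 change was 0.27 over the 10 genes and -0.45 over all genes tested. Over the 20 microglial genes named above it was 0.33, with 8 of the 20 higher and 1 lower. A rise was thus not particular to the adhesion genes. The mean of Itgax was 17.4-fold lower in ApoE KO and above 10 in both groups, and that of Itga4 was 12.8-fold lower and above 10 in WT alone. Their beta chains Itgb2 and Itgb1 had log2 changes of 0.47 and 0.035, which did not pass. Without WT library 8, 5 genes were higher (Itgam and Itgav joining) and 2 lower, where 30.6% of all genes passed, 7.64% as higher and 23% as lower. When libraries were scaled on the 20 microglial genes, which moved the median of all genes to -0.80, 1 gene was higher (Selplg) and 2 lower, against 1.69% and 31.3% of all genes (32.9% in all). Quantile scaling left 2 higher (Selplg and Icam1) and 2 lower, against 8.85% and 9.87% of all genes (18.7% in all). The split of all genes called was 535 higher and 2061 lower as deposited, 177 and 3283 under that scaling, and 920 and 1027 after quantile scaling, which put the median at 0.086. Fewer cells of a type and less RNA per cell cannot be told apart in bulk samples.

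**Figure D1:**
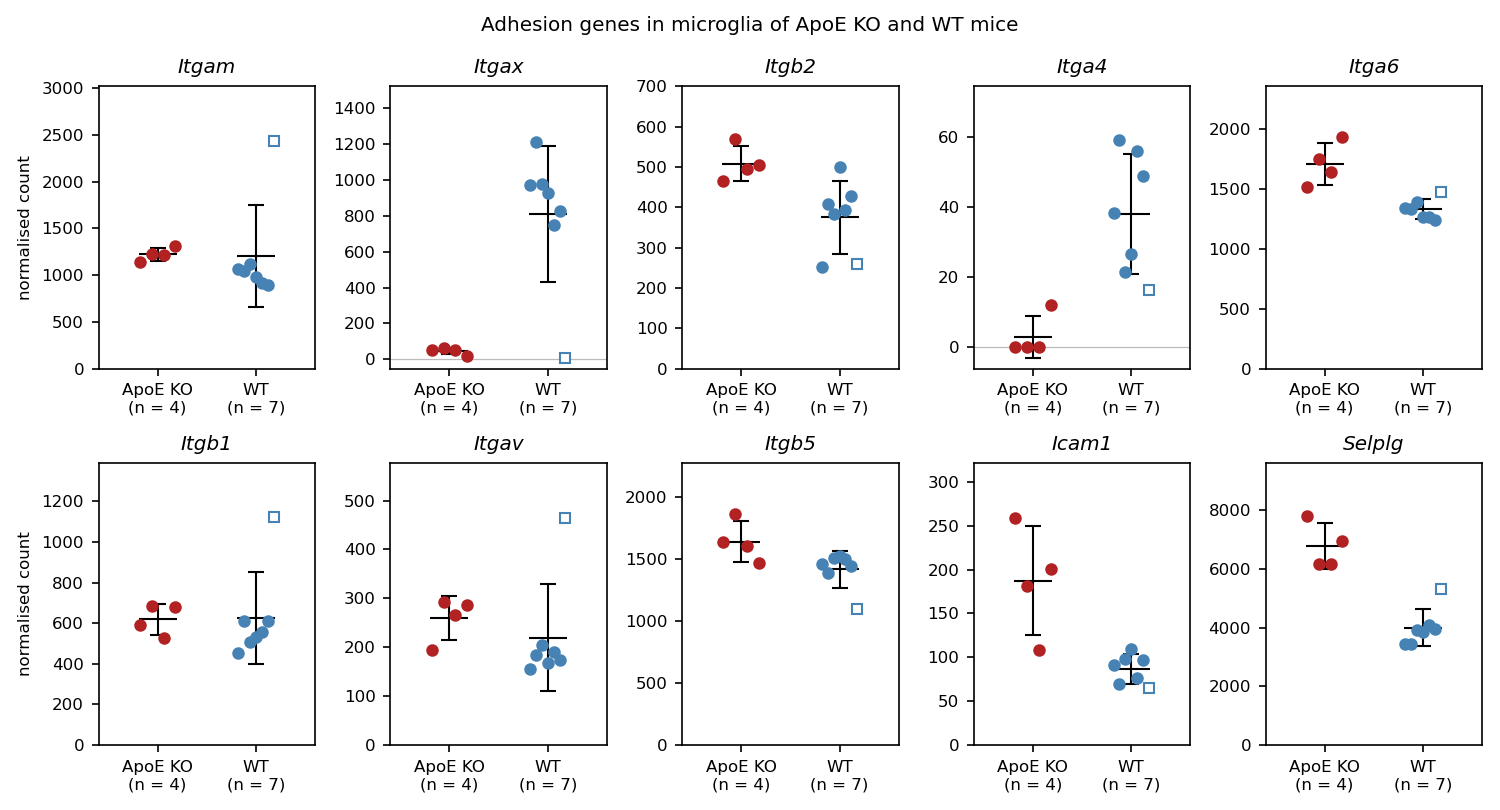
Normalised count of each of the 10 genes (vertical axes, starting at or below 0) in ApoE KO and WT libraries. Points are libraries, the open square is WT library 8, and the bar and whiskers are the mean and SD (n = 4 and 7). Itgax lies between 19.5 and 61.5 in ApoE KO, against 750 to 1208 in WT libraries other than 8.

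Itgam, the CD11b chain, had 1140, 1225, 1211 and 1314 normalised counts in the 4 ApoE KO libraries, against 893 to 2432 (median 1046) in WT libraries. The groups overlapped through WT library 8 alone, the highest of its group, while the other WT libraries reached at most 1117. The log2 change was 0.11 (SE 0.23, limma adjusted p = 0.756). Without WT library 8 the ApoE KO libraries lay above each WT library (1222 ± 71.8, n = 4, against 1002 ± 88.6, n = 6; SD), with a change of 0.29 (limma adjusted p = 0.0190). The gap was narrow (1140 against 1117), and the share of all genes without overlap was not counted in that setting. With the microglial gene scaling the sign turned (-0.24, limma adjusted p = 0.342), 0.56 above the median of all genes under that scaling.

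Itgax, the CD11c chain, had 51.1, 61.5, 53.6 and 19.5 normalised counts in ApoE KO libraries, against 9.03 to 1208 (median 924) in WT libraries. ApoE KO libraries held 396 Itgax reads in all, and WT libraries 5444. Each WT library but number 8, at 5 reads, lay far above each ApoE KO library, and WT library 8 lay below them all. Its log2 change was -3.48 (SE 1.04, limma adjusted p = 0.0248), and -4.42 without WT library 8 (limma adjusted p = 3.95e-07). The call was lost without ApoE KO library 4 (-3.12, limma adjusted p = 0.0725) and without WT library 2 (-3.26, limma adjusted p = 0.0511), both fits that keep WT library 8.

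Itgb2, the beta chain that Itgam and Itgax share, had 465, 568, 495 and 504 normalised counts in ApoE KO libraries, against 252 to 500 (median 392) in WT libraries. WT library 4, at 500, was the WT library within the ApoE KO range. A log2 change of 0.47 (SE 0.19) did not pass (limma adjusted p = 0.0880). The CD18 values thus gave no fall to match that of CD11c.

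The next 3 genes form the pairs with Itgb1. Itga4 had 0 reads in ApoE KO libraries 1, 2 and 3 and 12.0 normalised counts, or 27 reads, in library 4, against 16.2 to 59.1 (median 38.5) in WT libraries. The groups did not overlap, as was so for 14.3% of all genes tested, 10.6% with ApoE KO below and 3.67% above. The log2 change was -4.23 (SE 0.77, limma adjusted p = 0.00114), but the ApoE KO mean of 2.99 is below the filter of 10, which the gene passed through its WT level. With zeros in 3 of the 4 ApoE KO libraries, this size varied with the scale. It was -1.98 after quantile scaling (limma adjusted p = 0.0317), -2.56 with a pseudocount of 5 (limma adjusted p = 0.00111) and -4.97 with 0.5, and it was -5.16 without ApoE KO library 4. On the recovered reads edgeR's quasi-likelihood test did not pass (-3.57, adjusted p = 0.0742), whereas DESeq2 did (-3.67, adjusted p = 0.00547). Counts of 0 in libraries of this depth allow up to 1.30 to 1.70 normalised counts (3 reads), counting error only.

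Itga6, the laminin-binding alpha chain, had 1512, 1751, 1643 and 1931 normalised counts in ApoE KO libraries, against 1238 to 1473 (median 1333) in WT libraries. The groups did not overlap, and the means differed 1.29-fold (log2 change 0.36, SE 0.11, limma adjusted p = 0.0289). This small difference was lost under microglial gene scaling (0.01, limma adjusted p = 0.938) and quantile scaling (0.29, limma adjusted p = 0.116). It was also lost without ApoE KO library 2 or 4 (limma adjusted p = 0.0592 and 0.0833) and without WT library 1, 2, 4, 6 or 7 (limma adjusted p from 0.0502 to 0.0621, with changes of 0.34 to 0.36). Itgb1, the common beta chain, had 526 to 684 in ApoE KO and 453 to 1123 (median 555) in WT libraries, the highest being WT library 8. The groups overlapped, with a log2 change of 0.035 (SE 0.21, limma adjusted p = 0.916). Without WT library 8 it was 0.19 (limma adjusted p = 0.239).

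Itgav had 195, 292, 266 and 287 normalised counts in ApoE KO libraries, against 156 to 464 (median 183) in WT libraries. WT library 8 was again the highest, and the other WT libraries ended at 204, above ApoE KO library 1 alone. The log2 change was 0.32 (SE 0.27, limma adjusted p = 0.400), and 0.52 without WT library 8 (limma adjusted p = 0.0187). Itgb5, the beta chain that Itgav pairs with, had 1636, 1864, 1607 and 1468 in ApoE KO libraries, against 1101 to 1529 (median 1463) in WT libraries. The groups overlapped, with ApoE KO library 4 inside the WT range, and the log2 change was 0.21 (SE 0.12, limma adjusted p = 0.226). The lowest WT value was that of library 8, without which the change was 0.15 (limma adjusted p = 0.134). Under microglial gene scaling Itgav was at -0.020 and Itgb5 at -0.13 (limma adjusted p = 0.955 and 0.530).

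Icam1, the endothelial and leukocyte ligand of the CD11 integrins and a classical NF-kB target gene, had 259, 181, 109 and 201 normalised counts in ApoE KO libraries, against 65.0 to 110 (median 90.8) in WT libraries. ApoE KO library 3, at 108.9, lay just under WT library 4, at 110.0, and the other ApoE KO libraries lay above each WT library. The means were 188 ± 61.9 in ApoE KO (n = 4) and 86.7 ± 16.7 in WT (SD, n = 7), a 2.16-fold difference. Its log2 change of 1.06 (SE 0.26) passed (limma adjusted p = 0.00870), and with any library left out it stayed between 0.88 and 1.30 and still passed. With the microglial gene scaling it was 0.72 and did not pass (limma adjusted p = 0.0566). The Icam1 window shown above holds the NF-kB letters, which were chosen after the windows had been read. A part of NF-kB in this difference was not tested.

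Selplg had 7799, 6167, 6175 and 6945 normalised counts in ApoE KO libraries, against 3441 to 5310 (median 3923) in WT libraries. Each ApoE KO library lay above each WT library, of which number 8 was the highest. The means were 6771 ± 776 (n = 4) and 4000 ± 629 (SD, n = 7), and the log2 change was 0.77 (SE 0.14, limma adjusted p = 0.00114). It passed under each scaling and with each library left out, at 0.42 (limma adjusted p = 0.0239) under the microglial gene scaling and 0.92 after quantile scaling (limma adjusted p = 9.37e-05).

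**Figure D2:**
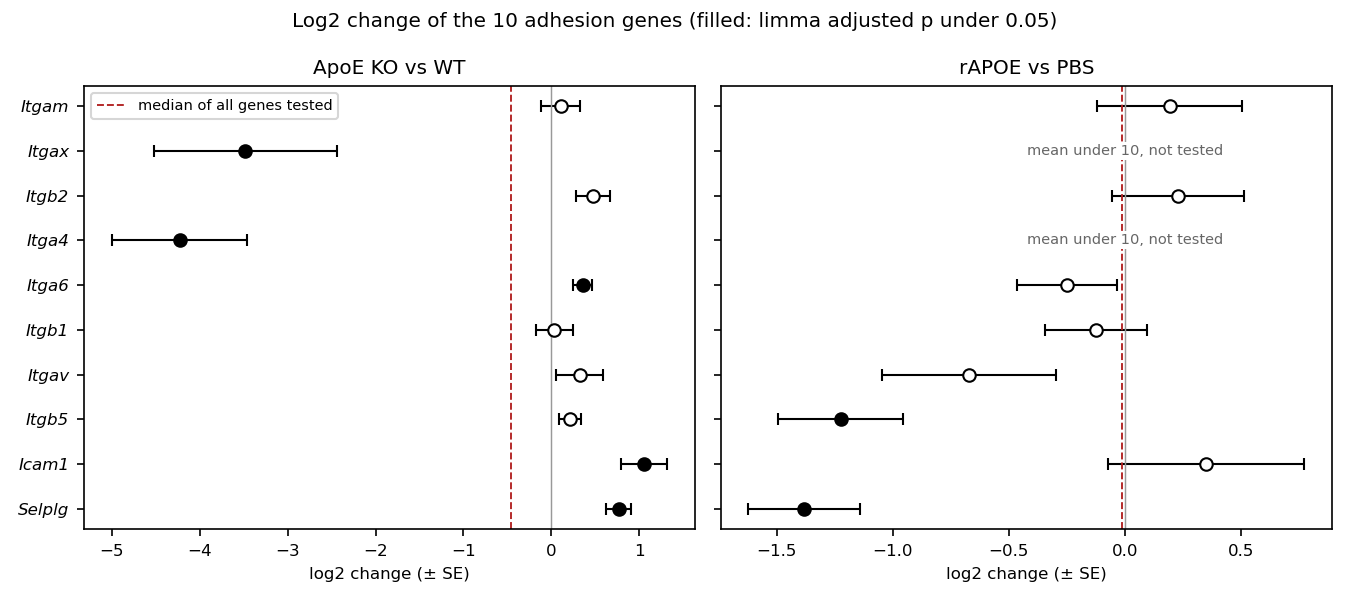
Log2 change (horizontal axes, with SE) of each gene in ApoE KO against WT libraries and in rAPOE against PBS libraries, on the log2(normalised count + 1) scale. Filled points passed at an adjusted p under 0.05, and the dashed line is the median of all genes tested. Itgax (-3.48) and Itga4 (-4.23) lie far left in the first panel, and Selplg (-1.38) and Itgb5 (-1.22) are lower in the second.

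Injection of rAPOE into the knockout brain was followed by lower Selplg and Itgb5 RNA than injection of PBS, and by no other call among these genes. Of the 10 genes, 8 passed the filter on low values and were tested, and 2 were lower and 0 higher (limma). At an unadjusted p under 0.05 the numbers were also 2 and 0, by limma, edgeR and DESeq2 alike. The background is narrow: 34 of 7066 genes tested passed, 0.481%, with 0.113% lower and 0.368% higher. The median log2 change was -0.19 over the 8 tested genes and -0.013 over all genes. With the microglial gene scaling the median of all genes moved to 0.50 and none of the 8 genes passed, where 1.82% of all genes did. That scaling called 129 genes higher and 1 lower (1.81% and 0.014%), against 26 and 8 as deposited. After quantile scaling Selplg and Itgb5 were lower as well, where 0.948% of all genes passed, 0.637% higher and 0.311% lower. Without both libraries numbered 5, which hold Xist, none of the 8 passed either, where 11 genes did in all (0.157%, 0.142% higher and 0.0142% lower).

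**Figure D3:**
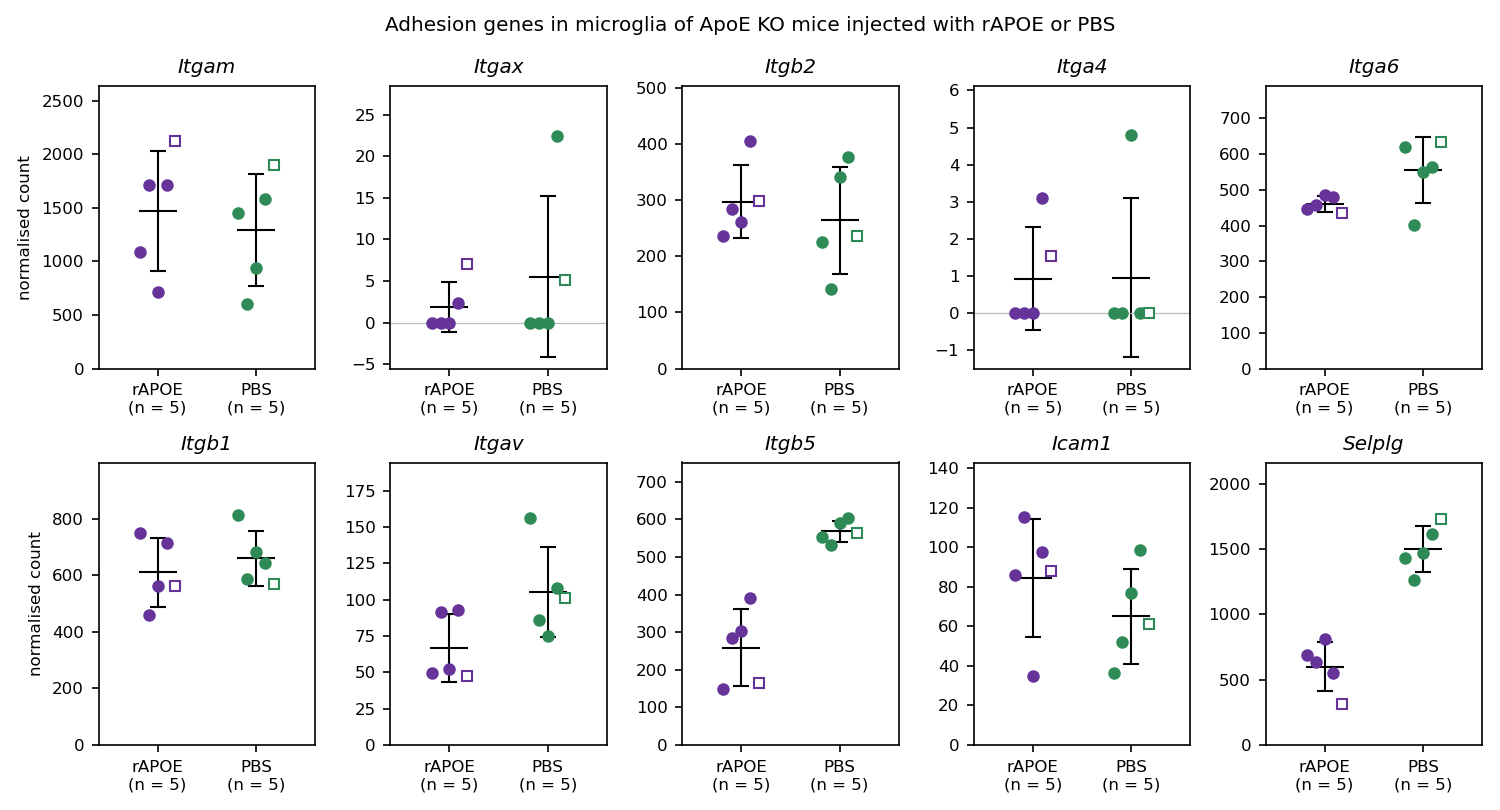
Normalised count of each of the 10 genes (vertical axes, starting at or below 0) in rAPOE and PBS libraries of ApoE KO mice. Points are libraries, open squares are the libraries numbered 5, and the bar and whiskers are the mean and SD (n = 5 each). Selplg (314 to 808 against 1263 to 1730) and Itgb5 (148 to 391 against 532 to 603) do not overlap between the groups.

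Selplg had 691, 639, 808, 548 and 314 normalised counts in rAPOE libraries 1 to 5, against 1430, 1263, 1465, 1611 and 1730 in PBS libraries 1 to 5. No value of the groups overlapped, as for 3.13% of all genes tested (1.54% with rAPOE below and 1.59% above), and both extremes were the libraries numbered 5. The means were 600 ± 185 after rAPOE and 1500 ± 179 after PBS (SD, n = 5 each), a 2.50-fold lower mean after rAPOE. The log2 change was -1.38 (SE 0.24, limma adjusted p = 0.00605), and it also passed in edgeR (-1.34, adjusted p = 0.0139). It was -1.11 without both libraries numbered 5 (limma adjusted p = 0.0634). With the microglial gene scaling it was -0.85 (limma adjusted p = 0.0547), which is 1.35 below the median of all genes under that scaling.

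Itgb5 had 148, 286, 304, 391 and 166 normalised counts in rAPOE libraries 1 to 5, against 552, 532, 590, 603 and 563 in PBS libraries 1 to 5. The PBS libraries were close together, the rAPOE libraries were spread, and the groups did not overlap. The means were 259 ± 101 after rAPOE and 568 ± 28.7 after PBS (SD, n = 5 each), a 2.19-fold lower mean after rAPOE. A log2 change of -1.22 (SE 0.27) resulted (limma adjusted p = 0.0404). This call stood near the threshold: edgeR gave an adjusted p of 0.107, and the microglial gene scaling gave -0.69 (limma adjusted p = 0.216). It was lost without PBS library 1, 3, 4 or 5 (limma adjusted p = 0.0921, 0.114, 0.0877 and 0.0872), and without rAPOE library 1, 2 or 5 (0.120, 0.0758 and 0.125). Without both libraries numbered 5 the change was -1.09 (limma adjusted p = 0.249).

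Itgav, the alpha partner of Itgb5, had 49.5, 91.8, 52.2, 93.1 and 47.4 normalised counts after rAPOE, against 156, 86.0, 75.2, 108 and 101 after PBS. The groups overlapped, and the log2 change of -0.67 did not pass (SE 0.37, limma adjusted p = 0.520). The other 5 tested genes also overlapped between the groups and did not pass, with limma adjusted p from 0.709 to 0.874. Itgam ranged from 716 to 2122 after rAPOE and 599 to 1904 after PBS (log2 change 0.19), and Itgb2 from 237 to 407 and from 142 to 378 (0.23). These CD11b and CD18 levels varied widely within both groups. Icam1 ranged from 35.1 to 115 after rAPOE and 36.4 to 98.8 after PBS (0.35), Itga6 from 435 to 487 and 402 to 634 (-0.25), and Itgb1 from 459 to 751 and 570 to 814 (-0.12). Under microglial gene scaling Itga6 and Itgb1 changed sign (0.28 and 0.41).

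Itgax and Itga4, the genes with the largest differences between genotypes, were near the floor in the injection table. Itgax had 0, 0, 0, 3 and 9 reads in rAPOE libraries 1 to 5, against 0, 0, 0, 34 and 8 reads in PBS libraries 1 to 5. Its normalised counts reached 22.4 at most. Itga4 had 6 reads in all after rAPOE and 3 after PBS. Neither passed the filter. With no filter, limma gave Itgax a log2 change of -0.49 (adjusted p = 0.940) and Itga4 one of 0.17 (adjusted p = 0.973), and neither passed. The Itgax reads all came from the libraries numbered 4 and 5, which also had reads of more genes.

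Selplg was higher in ApoE KO than in WT libraries and lower after rAPOE than after PBS in knockout mice. The comparisons share no library and were made in mice labelled female and male, labels that the Xist and Y-linked reads above go against in part, so their sizes (0.77 and -1.38) are set side by side without a test. Icam1 and Itga6, the other genes higher in ApoE KO, were at 0.35 and -0.25 after rAPOE and did not pass there. Itgb5, lower after rAPOE, was at 0.21 in ApoE KO and did not pass.

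**Figure D4:**
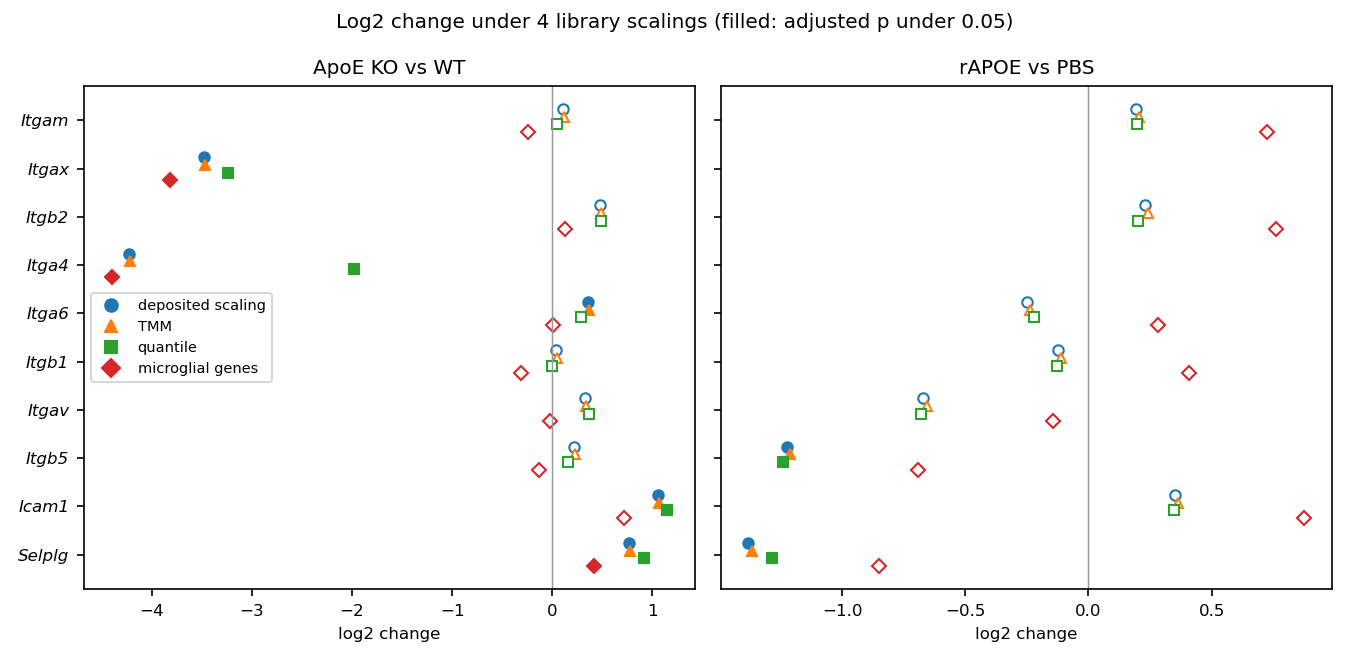
Log2 change of each gene (horizontal axes) under 4 scalings of the libraries, for ApoE KO against WT and rAPOE against PBS. Filled symbols passed at an adjusted p under 0.05. The microglial gene scaling shifts values left in the first panel and right in the second, and Selplg keeps its sign under all 4 in both, at 0.42 and -0.85 under that scaling.

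The ratio of an alpha chain to its beta chain was taken within each library, as (normalised count + 1) over (normalised count + 1). It hardly depends on the scaling where both chains have many reads, and where a chain has none it is set by the pseudocount and the scaling. In log2 units Itgax/Itgb2 was -3.16, -3.19, -3.18 and -4.62 in ApoE KO libraries, against -4.70 to 1.94 in WT libraries. The WT low was library 8, and the other WT libraries lay between 0.88 and 1.94. The difference in mean was -3.96 (exact two-sided permutation p = 0.0152, adjusted p = 0.0758 over the 10 ratio tests). Without WT library 8 it was -4.81 with no overlap (exact permutation p = 0.00476, the smallest the design allows, adjusted p = 0.0238).

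Itga4/Itgb1 was -9.42 to -5.71 in ApoE KO libraries and -6.03 to -3.28 in WT libraries, a difference of -4.27 (exact permutation p = 0.00606, adjusted p = 0.0606). The overlap was between ApoE KO library 4 and WT library 8, and without WT library 8 the difference was -4.59 (exact permutation p = 0.00476, adjusted p = 0.0238). Its ApoE KO values rest on the pseudocount, since 3 of the 4 libraries hold no Itga4 read. With all libraries, none of the 5 ratios passed after adjustment, and 2 had an unadjusted exact p under 0.05. The others differed by -0.37 (Itgam/Itgb2), 0.32 (Itga6/Itgb1) and 0.11 (Itgav/Itgb5), each with overlap. Without WT library 8 these differences were -0.10, 0.20 and 0.37, again with overlap, and none passed. The lowest p of the 3 was then that of Itgav/Itgb5 (exact permutation p = 0.0333, adjusted p = 0.111).

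After rAPOE none of the 5 ratios passed and none had an unadjusted exact p under 0.05. Itgav/Itgb5 was -2.52 to -1.57 after rAPOE and -2.96 to -1.81 after PBS, a difference of 0.55 (exact permutation p = 0.0794, adjusted p = 0.265). The lowest p that 5 against 5 libraries allow is 0.00794. Itgam/Itgb2 differed by -0.036, with ranges of 1.45 to 2.82 and 1.46 to 3.01.

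**Figure D5:**
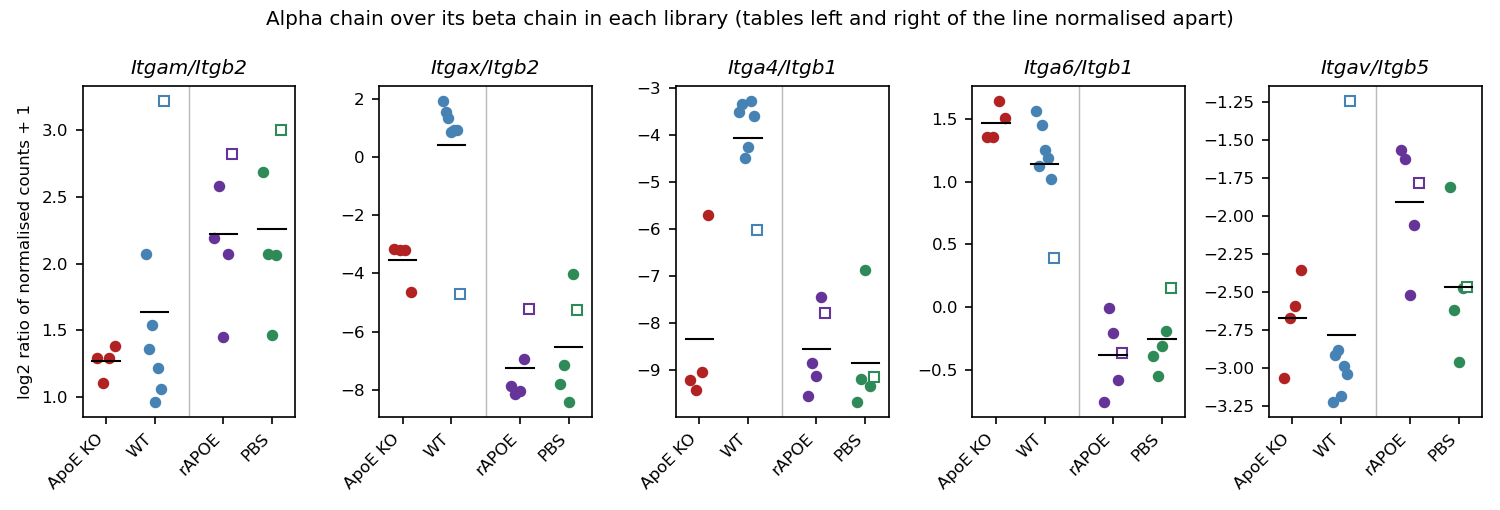
Log2 ratio of alpha to beta chain (vertical axes) in each library of the 4 groups, with the mean as a bar. Open squares are WT library 8 and the injection libraries numbered 5. For Itgax/Itgb2 the ApoE KO libraries and WT library 8 lie at or below -3.16 and the other WT libraries at or above 0.88.

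The other genes of the adhesion pathway were taken from lists. Among all genes 5.14% were higher in ApoE KO and 19.8% lower, and the counts below stand against that. Counts of lower genes also carry the filter, since a gene with an ApoE KO mean under 10 entered through its WT level and could only come out lower. Of the remaining integrin chains, 6 passed the filter and 3 were lower in ApoE KO, all with an ApoE KO mean under 10: Itgb8, which pairs with Itgav to activate latent TGF-beta, Itgb7, the lymphocyte homing chain, and Itga2b, a platelet chain. Itgb8 had 1 read over the 4 ApoE KO libraries, against 50.7 to 102 normalised counts in WT libraries (log2 change -5.92, SE 0.50, limma adjusted p = 2.29e-06). Itga2b had no read in ApoE KO libraries and was at least 85.7-fold lower there (3 reads over the group as the floor), although its WT values began at 0. Quantile scaling kept the call of Itgb8 (adjusted p = 4.31e-05) and ended those of Itga2b and Itgb7 (0.105 and 0.537). The other 3 did not pass as deposited. Of them Itga9, named after its values were seen, was at 170 ± 45.8 in ApoE KO (n = 4) and 98.7 ± 69.2 in WT libraries (SD, n = 7; 0.94, limma adjusted p = 0.0865). It was higher after quantile scaling (1.08, limma adjusted p = 0.0498) and without WT library 8 (limma adjusted p = 0.00419).

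Among 17 tested genes of integrin activation and of adaptors inside the cell, 4 were higher and 6 lower in ApoE KO. The list does not sort genes by whether they raise or restrain activation. The median log2 change was -0.12, against -0.45 over all genes, and 2 of the 6 had an ApoE KO mean under 10. Rassf5 (RAPL), an effector of Rap1, was at 504 ± 124 in ApoE KO and 233 ± 24.6 in WT libraries (1.09, limma adjusted p = 0.000379). The Rap1 GTPase Rap1b was at 1443 ± 207 and 938 ± 115 (0.62, limma adjusted p = 0.00412), and the adaptor Skap2 at 714 ± 93.4 and 429 ± 71.4 (0.74, limma adjusted p = 0.00267). Tln1, talin itself, was lower, at 428 ± 52.1 in ApoE KO and 629 ± 30.2 in WT libraries (-0.56, limma adjusted p = 0.00402). Under microglial gene scaling 1 was higher (Rassf5) and 6 lower, where 1.69% and 31.3% of all genes were, and after quantile scaling 4 and 2, where 8.85% and 9.87% were.

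Among 22 tested genes of adhesion complexes and the kinases that act on them, 3 were higher and 2 lower (median log2 change 0.090, against -0.45 over all genes). Lyn, a Src-family kinase of myeloid cells, was at 1804 ± 113 in ApoE KO and 926 ± 144 in WT libraries (0.97, limma adjusted p = 8.92e-05). Pxn, the adaptor paxillin, was at 174 ± 51.3 and 93.5 ± 13.2 (0.84, limma adjusted p = 0.0217). Actn1, which links integrins to actin, was lower, at 73.1 ± 14.9 and 205 ± 17.7 (-1.49, limma adjusted p = 6.58e-05), as was Parva, a partner of the kinase Ilk, with reads in ApoE KO library 4 alone and an ApoE KO mean under 10 (-4.17, limma adjusted p = 0.00459). With microglial gene scaling 1 was higher (Lyn) and 6 lower of 23.

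Of 10 tested adhesion proteins of the immunoglobulin family other than Icam1, 1 was higher and 6 were lower. Of those 6, 5 had an ApoE KO mean under 10, and the median log2 change of the 10, -2.06, was -0.34 after quantile scaling. F11r, a junctional adhesion protein, was at 4776 ± 525 in ApoE KO and 3310 ± 163 in WT libraries (0.52, limma adjusted p = 0.00358), and did not pass under microglial gene scaling (0.18, adjusted p = 0.324). Icam2, which like Icam1 binds integrins that hold Itgb2 and is abundant on endothelium, had 2.23 ± 4.45 and 170 ± 80.2 (-5.71, limma adjusted p = 0.00621). Alcam, an adhesion molecule of activated leukocytes, had no ApoE KO read and was at least 90.7-fold lower, and Esam, an endothelial junction protein, was at 3.21 ± 6.43 and 32.1 ± 9.16 (-4.05, limma adjusted p = 0.00128).

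Of 10 tested selectins and enzymes that build the P-selectin binding sugar and sulphate groups of PSGL-1, 4 were higher and 4 lower, and all 4 lower genes had an ApoE KO mean under 10. The median log2 change of the 10 was -0.60 as deposited and 0.21 after quantile scaling, a turn of sign. Tpst2, a tyrosine sulphotransferase, was at 421 ± 64.3 in ApoE KO and 198 ± 43.9 in WT libraries (1.10, limma adjusted p = 0.00109), and Gcnt1, which starts the core sugar branch, at 920 ± 82.6 and 599 ± 191 (0.67, limma adjusted p = 0.0221). Tpst1, the other sulphotransferase, was lower, at 5.54 ± 11.1 and 21.3 ± 9.80 (-3.21, limma adjusted p = 0.0145). Selp, the P-selectin that Selplg binds, had no ApoE KO read and was at least 143-fold lower. After quantile scaling 3 were higher and 1 lower, and in edgeR 2 and 1.

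Of 13 tested matrix and soluble ligands of integrins, 8 were lower and 0 higher (limma; 0 higher also at an unadjusted p under 0.05, in edgeR and in DESeq2). Of the 8, 6 had an ApoE KO mean under 10, so this count and the median log2 change of -3.00, which was -1.19 after quantile scaling, rest in part on the filter. Mfge8, which Itgav with Itgb5 binds, was at 116 ± 67.7 in ApoE KO and 488 ± 154 in WT libraries (-2.20, limma adjusted p = 0.00189). Fn1 (fibronectin) had 1 read in all ApoE KO libraries together, and Vtn (vitronectin) and Lamb1 (a laminin chain) had none, with means at least 56.4-fold and 118-fold lower. Without WT library 8 the numbers were 1 higher and 9 lower. That library was the lowest WT library for Mfge8 (159, the others at least 459), Fn1 (16.2, the others at least 928), Lamb1 (16.2) and Vtn (3.61). It was also the lowest for Alcam (3.61) and Parva (9.03), and had no read of Itga2b, Icam2 or Selp. Each of these genes passed without it too.

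Some calls in the lists rest on the method. On the recovered reads edgeR's quasi-likelihood test did not pass Itgb7, Parva, Esam, Tpst1 or Gcnt1 (adjusted p = 0.469, 0.187, 0.111, 0.422 and 0.0537). Under microglial gene scaling limma did not pass Skap2, Rap1b, Pxn or Gcnt1 (adjusted p = 0.0565, 0.203, 0.142 and 0.159), all higher as deposited. After quantile scaling it did not pass Parva, Tpst1 or Vtn (adjusted p = 0.0528, 0.663 and 0.264), all low in ApoE KO. In the injection table no gene of these 7 lists passed in limma as deposited, in edgeR or after quantile scaling, and 2 were higher under microglial gene scaling. At an unadjusted p under 0.05 limma gave 7 higher and 3 lower over the lists, and DESeq2 called 1 gene of integrin activation higher.

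Several marker lists of other cell types moved with the genotype groups, and their part in the differences above was not tested. The monocyte markers summed to 0 to 223 normalised counts in ApoE KO libraries, with 5 of 10 at 0 in all of them (S100a4, Plac8, Vcan, Ms4a8a and F10), against 66.8 to 575 in WT libraries with none at 0. Of 7 dendritic cell markers, 5 were at 0 in ApoE KO libraries (Flt3, Clec9a, Cd209a, Ccr7 and Klrd1), and the sums were 0 to 48.8 and 28.9 to 72.4. Only 2 of the 7, and none of those at 0, passed the filter. Limma, edgeR and DESeq2 called 0 of them in either direction. Of 10 T and NK cell markers, 8 were at 0 in ApoE KO libraries (among them Cd3e and Nkg7), with sums of 68.6 to 131 and 69.4 to 148 that Il7r led. Only 2 of the 10 passed the filter, with 0 higher and 1 lower by limma (1 and 1 at an unadjusted p under 0.05). The mean of Il7r was the higher in ApoE KO libraries, at 96.7 against 46.6 in WT libraries. In WT library 8, where Itgax was at 9.03, the monocyte sum was 66.8, the dendritic cell sum 28.9 and the T and NK cell sum 117, with values in the other WT libraries of at least 483, 43.1 and 69.4.

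Neutrophil markers summed to 1575 to 6215 in ApoE KO and 182 to 2733 in WT libraries, led by S100a8, with Elane at 0 in ApoE KO. These ranges overlapped, and the WT low was library 8, the others being at 2064 and more. Of the 7 tested neutrophil markers 0 were higher and 1 was lower by limma (0 and 0 in edgeR, 1 and 0 in DESeq2, and 1 higher by limma at an unadjusted p under 0.05). Neutrophils also carry Itgam, Itgb2 and Selplg. Border macrophage markers summed to 140 to 305 and 283 to 916, B cell markers to 252 to 513 and 334 to 899, and endothelial markers, a source of Icam1 and Icam2, to 165 to 329 and 231 to 465, with Tek, Tie1 and Emcn at 0 in ApoE KO. Choroid plexus markers, led by Ttr, summed to 440 to 887 in ApoE KO and 23882 to 83809 in WT libraries. Neuron (0 to 60.5 and 68.6 to 962), astrocyte (607 to 1052 and 1381 to 2331) and pericyte and fibroblast sums (16.4 to 55.1 and 63.2 to 130) also lay below those of WT libraries, and oligodendrocyte sums overlapped (92.5 to 282 and 190 to 640). The border macrophage, B cell, endothelial and oligodendrocyte sums overlapped through WT library 8 alone, the WT low of each. The other WT libraries lay at 746, 624, 363 and 550 or more, above each ApoE KO library.

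In the injection table, monocyte markers summed to 6.02 to 62.5 after rAPOE and 4.80 to 22.5 after PBS, and neutrophil markers to 6.02 to 97.9 and 35.6 to 166. The 20 microglial genes summed to 23095 to 40771 after rAPOE and 38623 to 45535 after PBS, with 3 of 20 lower and 0 higher by limma (median log2 change -0.52). At an unadjusted p under 0.05 limma gave 11 lower and 0 higher, edgeR called 0 in either direction and DESeq2 called 5 lower. Selplg and Itgb5 were thus lower where the microglial genes were lower too, and the part of that in both results was not tested.

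Genes whose levels followed those of Selplg, Itgb2 and Icam1 most closely within the groups are given as a description, over 10 libraries of a table (WT library 8 left out) that share their depth and scaling. Likeness is Pearson's r of log2 deviations from the group means among 3407 genes with a mean of at least 100 in the genotype table and 1234 in the injection table. The values given are the highest of that many over 10 libraries, a choice that by itself favours high r, and they were not tested. Selplg was followed by Enpp2 (0.93), one of the choroid plexus markers, Sgk1 (0.90) and Mtus1 (0.89) in the genotype table, and by Gpr34 (0.91), Arl6ip1 (0.90) and Gcnt1 (0.88) in the injection table. Itgb2 was followed by Gda (0.94), Ankfy1 (0.83) and Cul5 (0.79), and by Golm1 (0.92), Zfp710 (0.89) and Eprs (0.88). Icam1 was followed by Igf1r (0.94), Tubb2a (0.92) and Ufsp2 (0.92) in the genotype table and was below the level limit in the other. The 3 nearest genes of Selplg and of Itgb2 differed between the tables. They were ranked among different sets of genes (3407 and 1234), so this does not show a change in likeness.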

How the data were processed

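Per the labels' protocols, total RNA of microglia isolated from brain was sequenced on an Illumina MiniSeq as QuantSeq 3′ FWD libraries. The tools were R 3.2.3, Picard 1.8.4, DESeq2 and HTSeq with the genome GRCm38.p3, per the submitters' processing notes, which state neither role nor order. Which aligner, annotation and strand setting served is not given in the sources used here, and antisense or overlapping genes cannot be told apart. Each deposited value is a signal, called normalised count in the text, and equals whole reads times a step fixed for its library. Of the values above 0, 100% lay within 0.01 of a whole number of steps, and these reads gave the depths stated in the results. Reads carry no molecular identifiers, so floors cover counting error only.

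Of 18221 entries of the genotype table, 22 with a date as name (0.0966% of the summed values) and 120 at 0 throughout were left out. Log2(normalised count + 1) was fitted per table with limma 3.58.1 (R 4.3.3; eBayes with a trend) where a gene averaged at least 10, with Benjamini-Hochberg adjustment over all genes tested and a threshold of 0.05. Log2 changes understate those of low genes. Alternatives were pseudocounts of 0.5 and 5, no filter or a mean of at least 50, TMM, quantile and microglial gene scaling (the median ratio over 20 genes), edgeR 4.0.16 and DESeq2 1.42.0 on the recovered reads, a replicate block, and libraries left out. Chain ratios were compared by exact two-sided permutation of libraries, adjusted over 10 tests. The limma, edgeR and DESeq2 fits, but not the ratios or lists, were run on simulated data without an outlier library. That check asked only that large changes be recovered more often than small ones. The design named limma for normalised values, and it was used. The genes, the lists and the tests were chosen with earlier results of these data known. Besides the 10 genes, those named are up to 4 passing genes per list by adjusted p, the 3 nearest in pattern to Itgb2, Icam1 and Selplg, and markers at 0 or leading a list. Outliers within a group were sought by Dixon's test.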

Additional observations from a re-analysis of the deposited data

Results flagged for a closer look

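Dixon's test takes the gap of a library to the nearest other, relative to the range of its group. Of 40 groups of libraries (10 genes in 4 groups), 10 held a library that passed its 95% limit. Chance passes this limit in about 5% of groups of normally distributed values, a rate that does not hold for groups made up mostly of zeros. Of the 10 libraries so found, 6 were WT library 8. It was the highest WT library for Itgam (2432), Itgb1 (1123), Itgav (464) and Selplg (5310), and the lowest for Itgax (9.03) and Itgb5 (1101). ApoE KO library 4 was the lowest of its group for Itgax (19.5) and the only one with Itga4 reads (12.0). In the injection table, rAPOE library 3 was the lowest of its group for Icam1 (35.1), and PBS library 3 was the only PBS library with Itga4 reads (4.80).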

How the results depend on the processing

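Of the calls among the 10 genes, Selplg and Itgax in the genotype comparison kept theirs under each of the other settings, although Itgax lost its call with ApoE KO library 4 or WT library 2 left out. In that comparison the genes higher numbered 1 under microglial gene scaling and 2 to 5 with a library left out (5 without WT library 8), and the genes lower 1 in edgeR, 1 with a mean of at least 50, where Itga4 was no longer tested, and 1 to 2 with a library left out. All genes called numbered 2596, 1658 in edgeR, 1289 with a mean of at least 50, and 2007 to 3169 with a library left out. Chain ratios passing numbered 0, and 0 to 2 with a library left out (2 without WT library 8).

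After rAPOE the genes lower numbered 1 in edgeR, 1 with no filter, 0 under microglial gene scaling, 0 without both libraries numbered 5 and 1 to 2 with a library left out. All genes called numbered 34, 24 in edgeR, 114 in DESeq2, 130 under microglial gene scaling, 64 with a pseudocount of 5, 67 after quantile scaling, 11 without both libraries numbered 5 and 16 to 74 with a library left out. The extremes were 16 without rAPOE library 5 and 74 without rAPOE library 3, and 22 and 20 passed without rAPOE libraries 1 and 2. The cause was not tested.

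The sign turned, with no call in either case, under microglial gene scaling for Itgam (-0.24), Itgb1 (-0.31), Itgav (-0.020) and Itgb5 (-0.13) in the genotype comparison and for Itga6 (0.28) and Itgb1 (0.41) after rAPOE, and in DESeq2 for Itgb1 (-0.018). With a library left out Itgb1 ranged from -0.032 to 0.19 in the genotype comparison, and after rAPOE Itgam ranged from -0.057 to 0.43 and Itgam/Itgb2 from -0.23 to 0.16.

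Deviations of libraries with the same number had r from -0.029 to 0.020 in the genotype table and from -0.0042 to 0.021 for numbers 1 to 3 of the injection table, against 0.19 and 0.11 for its numbers 4 and 5. Since not every pair passed 0.1, the numbers were not taken as pairs. With the replicate number as a block, 1781 genes passed in the genotype table, 1 of the 10 genes higher and 2 lower, with Icam1 at 0.97 (limma adjusted p = 0.0653) and Itga6 at 0.35 (limma adjusted p = 0.0586). With the block 52 genes passed after rAPOE, 0 of the 10 higher and 2 lower. Reads per library limit what can be seen of Itga4 in ApoE KO libraries.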
